A study of Mus musculus with 71 samples.

Results

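Interferon-responsive genes were followed in the nucleus accumbens (NAc), ventral tegmental area (VTA) and prefrontal cortex (PFC) of mice trained to self-administer cocaine or, as controls, saline. They were 9 genes, Irf7, Isg15, Ifit1, Ifit3, Oasl2, Gbp2, Gbp3, Gbp5 and Gbp7, taken by symbol from 6 expression tables that each list 37681 genes, and all 9 were present in all 6 tables. These genes were selected on the cocaine against saline differences in these same libraries, so those differences are a description, and the calls of the fits over all genes are printed once, as a record from which nothing is read. The mice were wild-type C57BL/6 adults, and tissue punches were taken after 1 or 28 days of abstinence. Each of the 12 groups (region, treatment and day) held 6 libraries, except VTA saline at 28 days with 5, for 71 libraries in all. Both treatments shared the wild-type genotype and the self-administration training, and the saline groups were the control at each time point. In the 28-day tables the columns give the group but not the labelled mouse, so a library number there is only the column's number.

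Interferons are secreted when a cell senses viral or misplaced nucleic acid. They bind paired receptors, the receptor-bound kinases activate a complex of transcription factors that includes IRF9, and this complex binds the interferon-stimulated response element (ISRE) and raises a shared set of genes. Interferon gamma acts at a related site, GAS. In brain, microglia, astrocytes and endothelial cells all carry the response, at a low level without infection. Among the 9 genes, Irf7 is the transcription factor that amplifies interferon production, Isg15 is a ubiquitin-like modifier, Ifit1 and Ifit3 bind foreign RNA and its sensors, Oasl2 belongs to the oligoadenylate synthetase family, and Gbp2, Gbp3, Gbp5 and Gbp7 are guanylate-binding GTPases of cell-autonomous defence.

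On the mm9 build the 4 Gbp genes form a cluster on chromosome 3, from Gbp5 (142159864 to 142185308) through Gbp7 (142193302 to 142213047) and Gbp3 (142223016 to 142236173) to Gbp2 (142283566 to 142300972). Ifit3 (34658021 to 34663221) and Ifit1 (34715361 to 34724499) lie close together on chromosome 19. Irf7 (148448605 to 148452380) is on chromosome 7, Isg15 (155573533 to 155574927) on chromosome 4 and Oasl2 (115346943 to 115362243) on chromosome 5. Irf7 overlaps 1 gene of the opposite strand, Phrf1, and the strand used for counting was not given in the sources used here, so reads of that pair cannot be told apart. Ifit3 and Ifit3b, Oasl2 and Oasl1, and the Gbp genes are close relatives whose reads the counting could have split.

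The promoters were searched for the letters of the ISRE and GAS sites. The genes were grouped as interferon-responsive, so ISRE matches follow in part from that grouping and are a description only. In RefSeq windows of 300 bases (250 before to 50 after the start, build GRCm38.p6), the ISRE core GAAANNGAAA was searched on both strands. It was present for 7 of the 9 genes, against 3.99% of the 27025 genes with a window. Irf7 and Oasl2 had no match in this window, and Gbp3 had matches at the first of its 2 starts only. The GAS letters TTCNNNGAA, whose matches may overlap the ISRE core, were present for 2 of the 9 genes, Gbp5 and Gbp7, and for 9.55% of all genes. The 200 bases before the start are printed 5′ to 3′ for 3 genes with several matches (Isg15, Ifit1, Ifit3), for Gbp2 with 1 match, and for Irf7 with none. Each match is in capitals. Gbp3, with 2 overlapping matches at its first start, is not printed. Matches of Isg15 overlap one another, and its 3 matches run as 1 block.
Isg15 (chr4:156200819-156201018, minus strand): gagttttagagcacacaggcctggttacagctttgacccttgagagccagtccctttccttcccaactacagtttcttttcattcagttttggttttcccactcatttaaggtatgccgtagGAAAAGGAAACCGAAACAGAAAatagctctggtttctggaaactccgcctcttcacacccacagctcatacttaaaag
Ifit1 (chr19:34640689-34640888, plus strand): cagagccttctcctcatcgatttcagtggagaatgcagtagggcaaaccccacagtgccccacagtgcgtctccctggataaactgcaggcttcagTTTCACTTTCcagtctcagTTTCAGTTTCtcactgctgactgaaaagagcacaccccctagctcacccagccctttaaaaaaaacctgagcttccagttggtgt
Ifit3 (chr19:34583329-34583528, plus strand): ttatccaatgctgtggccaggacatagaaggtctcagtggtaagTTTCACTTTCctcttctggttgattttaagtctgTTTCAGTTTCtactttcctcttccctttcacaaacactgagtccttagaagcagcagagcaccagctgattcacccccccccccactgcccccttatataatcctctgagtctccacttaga
Gbp2 (chr3:142620463-142620662, plus strand): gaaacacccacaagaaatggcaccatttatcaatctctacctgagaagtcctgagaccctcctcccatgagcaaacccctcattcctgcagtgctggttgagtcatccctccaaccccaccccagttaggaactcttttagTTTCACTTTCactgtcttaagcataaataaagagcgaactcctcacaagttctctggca
Irf7 (chr7:141266425-141266624, minus strand): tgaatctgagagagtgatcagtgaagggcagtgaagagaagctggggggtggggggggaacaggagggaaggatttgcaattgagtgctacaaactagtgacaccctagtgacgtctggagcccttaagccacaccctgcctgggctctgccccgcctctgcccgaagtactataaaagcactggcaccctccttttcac
These matches are letters in a window and do not show binding.

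Expression was low in every region, which limits how finely these genes could be compared. The counted libraries held 20971967 to 49700932 reads in genes, and reads recovered for the VTA and PFC 1-day libraries, whose tables give RPKM (reads per kilobase of gene, scaled to library size), ran from 22258608 to 28571639. Levels between genes are set side by side only in RPKM, since this unit is per length. In saline libraries at 1 day the order in the VTA was led by Ifit3, at 12.2 ± 2.33 RPKM (SD, n = 6), followed by Gbp3 at 3.06 ± 0.819. The lowest was Gbp7, at 1.44 ± 0.172 RPKM, and from Gbp3 down the ranges of neighbours in the order overlapped. In the PFC Ifit3 was again highest, at 6.84 ± 1.59 RPKM, and Irf7 lowest, at 1.05 ± 0.437 RPKM. There too the ranges of neighbours overlapped from Gbp3 down, and Ifit3 alone stood apart from its neighbour in both regions.

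Some libraries stood apart from their labels or groups. PFC saline library 4 at 28 days had a summed level of 4 NAc marker genes (Drd1a, Drd2, Adora2a, Ppp1r1b) of 1320 CPM (counts scaled to library size), against 108 to 141 in the other 5 PFC saline libraries. VTA cocaine library 6 at 1 day had a summed level of 4 choroid plexus markers of 176 RPKM, against 2.04 to 14.4 in the other cocaine libraries and 2.53 to 60.8 in the saline libraries. The dopamine neuron markers (Th, Slc6a3, Slc18a2, Pitx3, En1) summed to 310 to 765 RPKM in VTA cocaine and 498 to 1258 in VTA saline libraries at 1 day. NAc libraries carried PFC marker genes to differing degrees. Their sums at 1 day were 11.1 to 868 CPM after cocaine and 9.27 to 628 after saline. At 28 days the sums were 12.6 to 608 and 61.1 to 527 CPM. In bulk tissue, fewer cells of a type and less RNA per cell cannot be told apart.

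**Figure D1:**
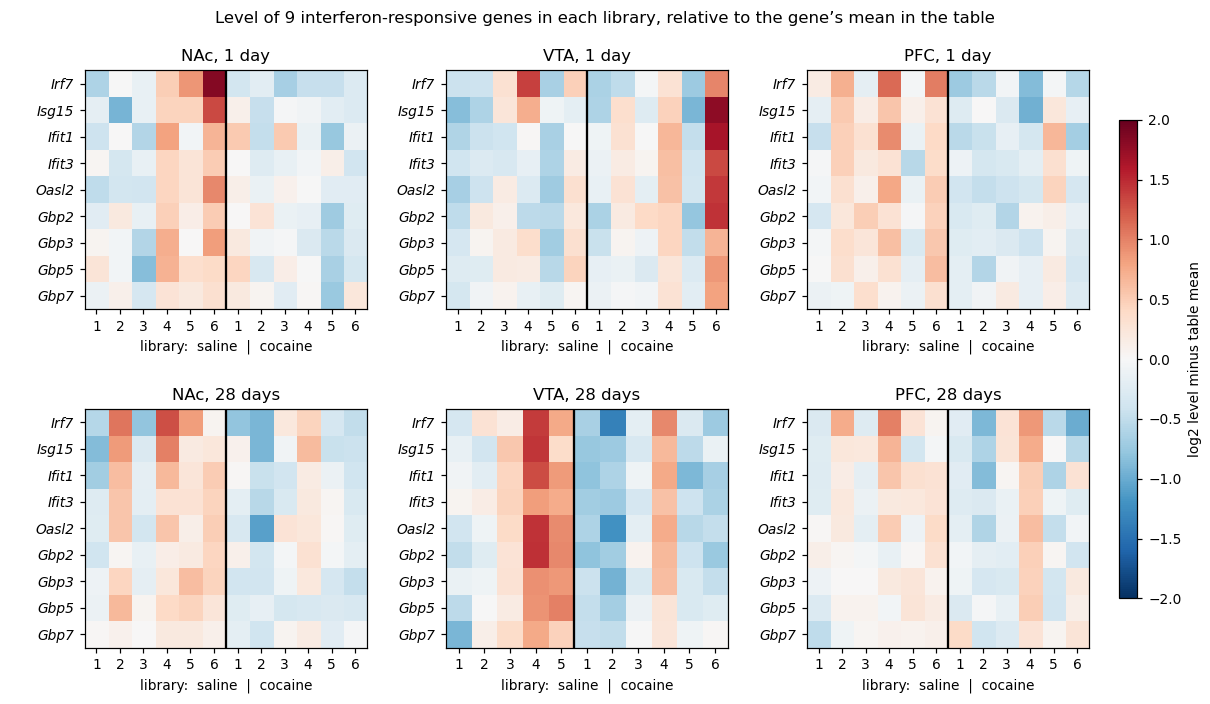
Level of each of the 9 genes (rows) in every library (columns, saline left and cocaine right of the black line), as log2 level minus the gene's mean in that table, with red for higher and blue for lower. Whole columns share a colour, such as VTA cocaine library 6 at 1 day and VTA saline library 4 at 28 days.

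After 1 day of abstinence the 9 genes were all lower in the cocaine group of the NAc, with Irf7 far below the rest. Irf7 ranged from 0.877 to 1.20 CPM over the 6 cocaine libraries, with a median of 1.04, and from 0.911 to 4.96 CPM over the 6 saline libraries, with a median of 1.67. The groups overlapped, since saline library 1 lay among the cocaine libraries, and saline library 6 was the highest. The log2 fold change of Irf7 was -1.04 ± 0.35 (SE), a level 51.3% lower. Isg15 ranged from 0.562 to 0.833 CPM after cocaine and from 0.409 to 1.94 CPM after saline, and its log2 fold change was -0.47 ± 0.31. Saline library 2 was below all cocaine libraries for this gene. The other 7 genes had log2 fold changes between -0.39 for Gbp3 and -0.14 for Gbp7. The median over the 9 genes was -0.29, against 0.00 over the 15878 genes tested, and it was -0.18 without saline library 6.

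Saline libraries 4, 5 and 6 carried the higher NAc levels at 1 day. The mean of the 9 genes, as log2 level minus the table mean, was 0.53, 0.27 and 0.82 in these 3 libraries and -0.37 to -0.16 in the other 3. In the cocaine libraries it ran from -0.47 to 0.14. Microglial markers summed to 350 to 457 CPM after cocaine and 387 to 435 after saline, and endothelial markers to 192 to 271 and 184 to 242, and their part in the result was not tested.

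The PFC at 1 day had the same direction for all 9 genes. Irf7 ranged from 0.328 to 0.656 RPKM over the cocaine libraries, with a median of 0.429, and from 0.591 to 1.61 RPKM over the saline libraries, with a median of 0.975. The groups overlapped only at that margin, and all 6 cocaine libraries were below the saline mean. Its log2 fold change on the log2(RPKM + 0.1) scale was -0.94 ± 0.24, and this scale understates the change of low genes. Gbp3 ranged from 1.23 to 1.73 RPKM after cocaine and from 1.34 to 2.58 RPKM after saline, a log2 fold change of -0.46 ± 0.14. Oasl2 and Ifit1 had one high cocaine library, number 5. Oasl2 was 1.53 RPKM in that library and 0.760 to 0.851 RPKM in the other 5 cocaine libraries, with 0.993 to 1.93 RPKM after saline. Its log2 fold change was -0.50 ± 0.18, and that of Ifit1 was -0.51 ± 0.25.

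The 3 smallest PFC changes at 1 day were those of Gbp7 (-0.13 ± 0.13), Ifit3 (-0.24 ± 0.15) and Gbp2 (-0.37 ± 0.15). The median of the 9 was -0.46, against -0.01 over the 14427 genes tested. Microglial markers summed to 137 to 161 RPKM after cocaine and 136 to 180 after saline. Endothelial markers summed to 62.6 to 90.2 and 72.4 to 92.2 RPKM, and their part in the result was not tested.

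The VTA at 1 day had the opposite direction for 8 of the 9 genes, and 1 library carried much of it. Ifit1 ranged from 1.82 to 8.27 RPKM over the cocaine libraries, with a median of 2.88, and from 1.61 to 2.60 RPKM over the saline libraries, with a median of 1.90. The highest cocaine value, in library 6, was far above the next, 4.14 RPKM in library 4. The log2 fold change was 0.69 ± 0.29. Ifit3 ranged from 11.0 to 36.7 RPKM after cocaine and from 9.42 to 16.4 RPKM after saline, a log2 fold change of 0.54 ± 0.24. Oasl2 ranged from 2.48 to 8.69 RPKM and from 1.92 to 4.02 RPKM, a log2 fold change of 0.53 ± 0.29. For each of these 3 genes, 5 of the 6 cocaine libraries were above the saline mean. Irf7, the one gene with a lower mean, had 0.718 to 2.56 RPKM after cocaine and 0.765 to 3.39 after saline, a log2 fold change of -0.22 ± 0.37.

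The median over the 9 genes in the VTA at 1 day was 0.27, against 0.03 over the 15042 genes tested, and without cocaine library 6 it was 0.09. It was 0.42 without cocaine library 1 and 0.48 without cocaine library 5. Without library 6, Ifit1 had a log2 fold change of 0.42 and Ifit3 of 0.32, while Isg15 moved from 0.27 to -0.06, Gbp3 from 0.04 to -0.09 and Gbp5 from 0.09 to -0.07. Microglial markers were lower after cocaine, at 123 to 171 RPKM against 181 to 242, with no overlap. Of the 8 markers 7 were lower at an unadjusted p under 0.05, with 4.57% of all genes lower. At an adjusted p of 0.05 limma called 1 of the 8, with 0.0665% of all genes. Endothelial markers summed to 99.2 to 163 RPKM after cocaine and 94.3 to 127 after saline, with library 6 highest. Red blood cell genes summed to 414 RPKM in library 6 and 30.0 to 340 in the other cocaine libraries, against 45.6 to 108 after saline. PFC marker genes summed to 6.05 to 73.8 RPKM after cocaine, highest in library 6, and to 1.87 to 30.0 after saline. Of these markers 2 were tested, and 2 were higher at an unadjusted p under 0.05. The part of these cells and tissues in the result was not tested.

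**Figure D2:**
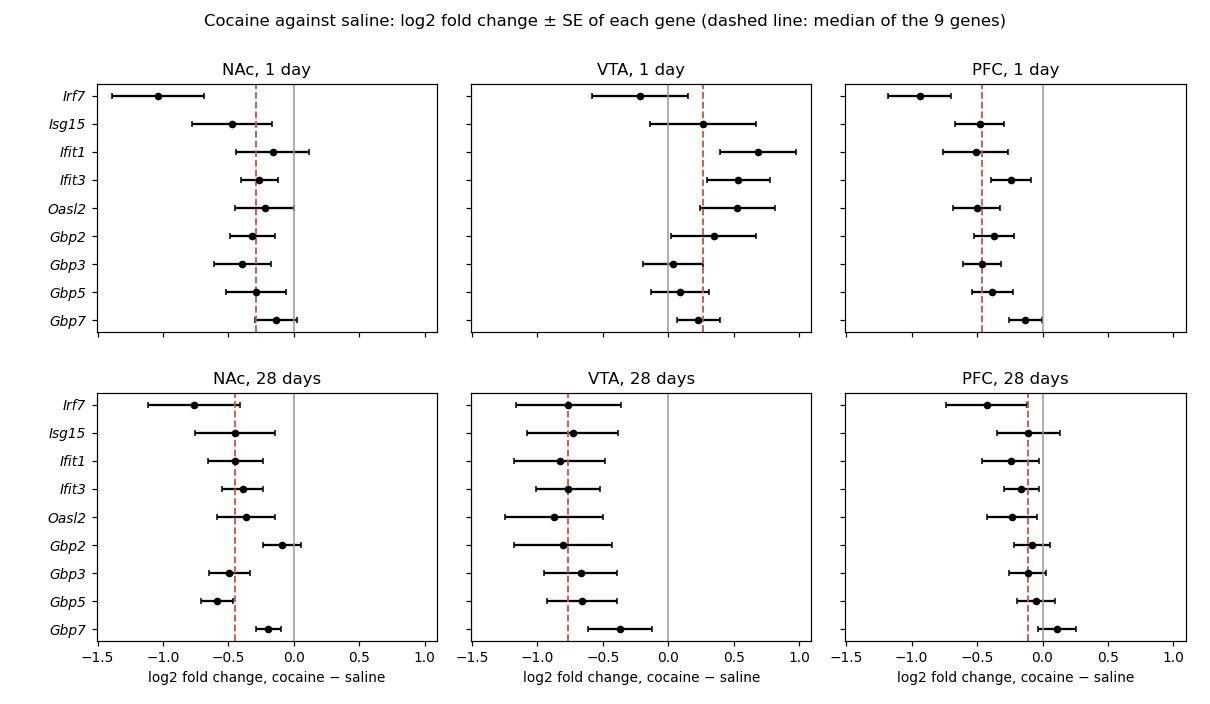
Log2 fold change (cocaine minus saline, horizontal axis) with its standard error for each of the 9 genes (vertical axis) in the 6 tables; the dashed line is their median and the grey line is 0. The median runs from -0.76 (VTA, 28 days) to 0.27 (VTA, 1 day).

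After 28 days the NAc again had all 9 genes lower in the cocaine group. Gbp5 was the tightest, at 2.63 to 2.98 CPM over the 6 cocaine libraries, with a median of 2.72, and at 3.10 to 5.28 CPM over the 6 saline libraries, with a median of 4.20. The groups did not overlap, which was so for 1 of the 9 genes and for 0.221% of all genes in this table. Its log2 fold change was -0.58 ± 0.12. Irf7 ranged from 1.67 to 4.29 CPM after cocaine and from 1.82 to 7.69 CPM after saline, and its log2 fold change was -0.76 ± 0.35. Gbp3 ranged from 3.50 to 5.63 CPM and from 4.29 to 7.45 CPM, and its log2 fold change was -0.49 ± 0.15. Saline libraries 1 and 3 were low for all 3 genes, and the other 4 saline libraries were higher. The smallest change was that of Gbp2, at -0.09 ± 0.15.

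The median in the NAc at 28 days was -0.45, against 0.00 over the 16295 genes tested. Endothelial markers summed to 208 to 260 CPM after cocaine and 231 to 297 after saline, and 2 of the 6 had an unadjusted p under 0.05. Microglial markers summed to 436 to 518 and 423 to 501 CPM. Red blood cell genes summed to 47.0 to 82.5 and 54.4 to 325 CPM, with 3 of 3 lower at an unadjusted p under 0.05, and the part of these cells in the result was not tested.

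The VTA at 28 days had the lowest median, and all 9 genes were lower after cocaine. Ifit3 was 19, 20.5, 25.1, 32.7 and 30.6 CPM in saline libraries 1 to 5, and ranged from 11.1 to 27.6 CPM over the 6 cocaine libraries, with a median of 12.8. Only cocaine library 4 overlapped the saline group, and the other 5 lay at or below 14.6 CPM. The log2 fold change was -0.77 ± 0.24. Oasl2 was 5.48, 6.75, 9.35, 19.5 and 13.8 CPM in the saline libraries, and 3.10 to 11.9 CPM after cocaine, and its log2 fold change was -0.87 ± 0.37. Ifit1 was 4.76, 4.31, 6.72, 12.3 and 8.95 CPM in the saline libraries, and 2.68 to 8.43 CPM after cocaine, and its log2 fold change was -0.83 ± 0.35. Saline libraries 4 and 5 were the highest for Oasl2 and Ifit1, and cocaine library 4 was the highest of its group. The smallest change was that of Gbp7, at -0.37 ± 0.24.

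The median in the VTA at 28 days was -0.76, against -0.03 over the 16937 genes tested. It was -0.50 without saline library 4 and -1.02 without cocaine library 4. Endothelial markers summed to 246 to 352 CPM after cocaine and 289 to 551 after saline, highest in saline library 4, and 3 of the 6 were lower at an unadjusted p under 0.05. Microglial markers summed to 290 to 447 and 368 to 732 CPM, highest in saline library 5, and 2 of 8 were lower at that p. Red blood cell genes summed to 50.4 to 265 CPM after cocaine, highest in library 4, and to 66.5 to 477 after saline, highest in library 4. Choroid plexus markers summed to 4.82 to 21.9 and 4.13 to 52.5 CPM, highest in the same libraries. PFC marker genes summed to 9.46 to 51.0 and 10.1 to 225 CPM, and dopamine neuron markers to 1398 to 4227 and 850 to 4686 CPM, with saline library 4 the highest for the former and the lowest for the latter. Their part in the result was not tested.

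In the PFC at 28 days the differences were small. Irf7 ranged from 1.51 to 5.50 CPM after cocaine and from 2.48 to 6.05 CPM after saline, with a log2 fold change of -0.43 ± 0.31. Ifit3 was 11.2 CPM in cocaine library 4, 6.55 to 7.57 CPM in the other 5 cocaine libraries and 6.77 to 9.73 CPM after saline, and its log2 fold change was -0.16 ± 0.14. Gbp7 was the one gene with a higher mean, at 3.82 to 6.56 CPM after cocaine and 3.55 to 5.41 CPM after saline, and its log2 fold change was 0.11 ± 0.14. The median was -0.11, against 0.00 over the 16340 genes tested. It was -0.30 without cocaine library 4, -0.06 without cocaine library 2 and -0.12 without saline library 4, the one with NAc markers. Endothelial markers summed to 187 to 280 CPM after cocaine and 214 to 293 after saline, and microglial markers to 373 to 439 and 378 to 434 CPM. Red blood cell genes summed to 44.7 to 77.9 CPM after cocaine and 37.8 to 272 after saline, highest in saline library 4. Saline library 4 was also the highest for these genes in the NAc (325 CPM) and VTA (477 CPM) at 28 days. The part of these cells in the PFC result was not tested.

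The fits over all genes gave the following record for the 9 genes, which were chosen on these differences, so a count above the share of all genes is no evidence about them. At an adjusted p of 0.05, edgeR or limma called 0 of the 9 in each of the 6 tables. They called 0.0126% of all genes in the NAc, 0.0665% in the VTA and 0.00693% in the PFC at 1 day, and 0% in each region at 28 days. In the counted tables DESeq2 called 1 of the 9, Gbp5, in the NAc at 28 days, with 0.156% of all genes. It called 0 of the 9 in the NAc at 1 day (0.143% of all genes) and in the VTA (0.531%) and PFC (0.0123%) at 28 days. EdgeR on recovered reads called 0 of the 9 in the VTA and PFC at 1 day, with 0.273% and 0.00635% of all genes.

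At an unadjusted p under 0.05, 1 of the 9 (Irf7) was lower in the NAc at 1 day, with 1.25% of all genes lower and 2.76% higher. In the PFC at 1 day 6 of the 9 were lower, with 2.11% of all genes lower and 1.67% higher. In the VTA at 1 day 2 of the 9 (Ifit1 and Ifit3) were higher, with 4.57% of all genes lower and 11.2% higher. At 28 days 4 of the 9 were lower in the NAc (Gbp3, Gbp5, Ifit3 and Irf7), with 3.42% of all genes lower and 3.34% higher. In the VTA 5 of the 9 were lower (Gbp3, Gbp5, Ifit1, Ifit3 and Oasl2), with 6.39% of all genes lower and 5.08% higher. In the PFC 0 of the 9 were, with 2.97% lower and 2.69% higher. The groups overlapped for all 9 genes outside the NAc at 28 days, where the shares of all genes with no overlap were 0.365%, 1.67% and 0.159% in the NAc, VTA and PFC at 1 day, and 1.27% and 0.233% in the VTA and PFC at 28 days.

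The 9 genes varied together between libraries of one group. After each group's mean was subtracted from the log2 CPM values, Pearson's r between 2 of the genes over the 35 libraries of the 28-day tables was positive for 36 of 36 pairs, with a median of 0.75 and a range of 0.53 to 0.86. Over all pairs of 17679 genes the median was 0.00 and 49.5% were positive. An r of at least 0.7 was found for 23 of the 36 pairs and for 0.827% of all pairs. In the 12 NAc libraries at 1 day 36 of 36 pairs were also positive, with a median r of 0.63, and 12 pairs reached 0.7, against 5.52% of all pairs. These values describe libraries that share tables and dissections, and carry no test.

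Oasl2 followed the other 8 genes most closely at 28 days, with r = 0.93 against their mean, and Gbp7 least, with r = 0.69. Irf7 varied most, with a spread of 0.69 log2 units within groups, above that of 90.4% of all genes. The median gene had a spread of 0.20. The 5 genes outside the list whose within-group pattern was most like the mean of the 9 over these 35 libraries were Ifi44 (r = 0.89), Lgals9 (0.88), Vwf (0.88), Trim25 (0.87) and Trim30a (0.87). Ifi44, Trim25 and Trim30a stand on the lists of interferon-inducible genes. Lgals9 encodes a galectin, and Vwf encodes von Willebrand factor, made by endothelial cells. Of the 20 most alike genes 9 were on the interferon lists, which name 93 genes, with 17679 genes compared. Over the 12 NAc libraries at 1 day 4 of the 20 most alike genes were on these lists. The lists were drawn up with the results of these libraries known, so these counts are a description only.

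**Figure D3:**
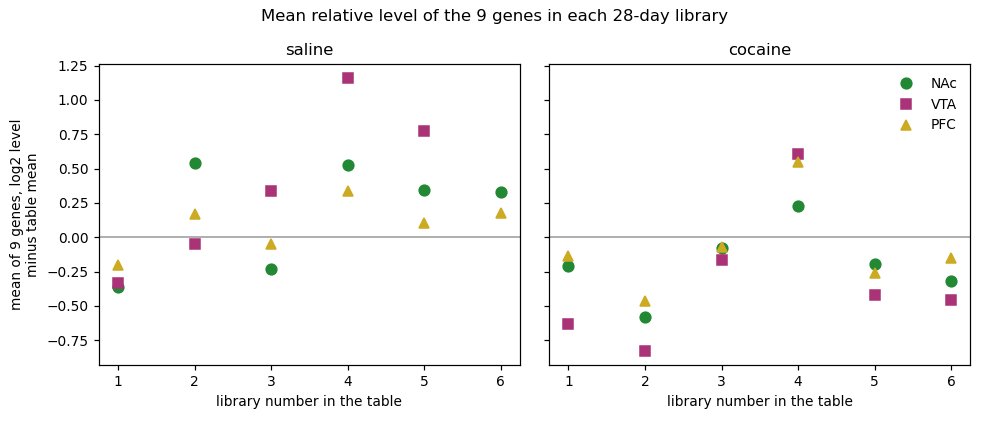
Mean of the 9 genes in each 28-day library, as log2 level minus the table mean (vertical axis), by the library's number in the table (horizontal axis), for NAc (circles), VTA (squares) and PFC (triangles). Among cocaine libraries number 4 is highest and number 2 lowest in each of the 3 regions.

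Library numbers of the 28-day tables lined up across regions in the cocaine group. Cocaine library 4 was the highest of its group in the NAc (0.22), VTA (0.61) and PFC (0.55), as mean log2 level minus the table mean. Cocaine library 2 was the lowest in all 3, at -0.58, -0.83 and -0.47. In the saline group, library 4 was at 0.53, 1.16 and 0.34, and library 1 at -0.36, -0.33 and -0.20. Saline library 2 was above the mean in the NAc (0.54) and PFC (0.17) and at -0.05 in the VTA. At 1 day the cocaine numbers did not line up. Cocaine library 6 was at -0.21 in the NAc, 1.21 in the VTA and -0.32 in the PFC. Cocaine library 5 was at -0.47, -0.51 and 0.23 in the same regions. In the saline group at 1 day, libraries 4 and 6 were the highest 2 in each region. Saline library 4 was at 0.53 in the NAc, 0.17 in the VTA and 0.55 in the PFC, and saline library 6 at 0.82, 0.20 and 0.50. Saline library 5 differed in sign between regions, at 0.27, -0.53 and -0.15. The labels do not say whether a shared number is a shared mouse.

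The next comparison asked whether the level differed between regions, which the choice of the genes did not use. Libraries of different regions were treated as independent, although some may come from the same mouse. At 28 days the mean of each of the 9 genes was highest in the VTA, and no difference between the NAc and PFC passed the test. Among saline libraries Ifit3 was 7.91 to 14.0 CPM in the NAc, 17.9 to 30.3 CPM in the VTA and 7.03 to 10.2 CPM in the PFC. The VTA values lay above all NAc and PFC values. The VTA level was 2.18-fold that of the NAc (log2 fold change 1.12 ± 0.17, edgeR adjusted p = 1.67e-05), and the PFC level was 0.375-fold that of the VTA (-1.41 ± 0.17, adjusted p = 1.46e-06). Ifit1 was 2.38-fold higher in the VTA than in the NAc (1.25 ± 0.27, edgeR adjusted p = 0.000678), Gbp2 2.31-fold (1.21 ± 0.27, adjusted p = 0.000847) and Oasl2 2.21-fold (1.14 ± 0.28, adjusted p = 0.00163). Gbp3 was 1.39-fold higher, with an adjusted p = 0.0405 in edgeR. This call was lost in 9 of the 17 fits that left out 1 library (NAc 1, 3, 4 or 6, VTA 4 or 5, PFC 1, 4 or 5), where the adjusted p reached 0.139. In saline libraries 5 of the 9 genes were thus higher in the VTA than in the NAc, and 32.6% of all 17181 genes were. Against the PFC 7 of the 9 were higher in the VTA, all but Irf7 and Isg15, and 29.8% of all genes were.

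By edgeR neither Irf7 nor Isg15 passed in these region comparisons. Irf7 had 1.86 to 7.86 CPM in the NAc, 3.23 to 10.6 CPM in the VTA and 2.57 to 6.22 CPM in the PFC of saline libraries. The PFC minus VTA difference was -0.61 ± 0.38 on the log2 scale for Irf7 (edgeR adjusted p = 0.178) and -0.79 ± 0.34 for Isg15 (adjusted p = 0.0539). Isg15 was called there by DESeq2, by edgeR with DESeq2's size factors and in 5 of the 17 edgeR fits that left out 1 library, with adjusted p from 0.0257 to 0.252 over all alternatives. Between the PFC and NAc 0 of the 9 genes passed, while 40.7% of all genes did, and the differences ran from -0.33 to -0.01. In edgeR 0 of the 9 had an unadjusted p under 0.05 there, against 47.7% of all genes, and DESeq2 called 0 of the 9 and 42.4% of all genes. PFC marker genes summed to 61.1 to 527 CPM in the NAc and 1370 to 2232 CPM in the PFC of these libraries. The part of such marker levels in the comparisons of the PFC and NAc was not tested.

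In cocaine libraries the VTA again had the highest mean of each of the 9 genes. Ifit3 was 6.49 to 10.7 CPM in the NAc, 10.5 to 26.0 CPM in the VTA and 6.82 to 11.8 CPM in the PFC. The VTA level was 1.72-fold that of the NAc (0.78 ± 0.20, edgeR adjusted p = 0.00177) and the PFC level 0.56-fold that of the VTA (-0.84 ± 0.20, adjusted p = 0.00102). Against the NAc 5 of the 9 genes were higher in the VTA (Ifit1, Ifit3, Oasl2, Gbp2 and Gbp5), and 35.0% of all 16948 genes were. Against the PFC 4 of the 9 were higher in the VTA (Ifit1, Ifit3, Oasl2 and Gbp2), and 33.3% of all genes were. Between PFC and NAc 0 of the 9 passed, and 53.4% of all genes did, with differences from -0.14 to 0.20. In edgeR 0 of the 9 had an unadjusted p under 0.05 there, against 58.2% of all genes, and DESeq2 called 0 of the 9 and 53.9% of all genes. Whether the region differences themselves changed with cocaine was not tested.

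Leaving out single libraries moved the counts in cocaine libraries. The VTA against NAc count was 2 without NAc library 6, VTA library 3 or VTA library 4, and 3 without NAc library 2, NAc library 3 or PFC library 2. The VTA against PFC count was 2 without VTA library 4. Its Gbp2 call was lost in 7 of the 18 fits that left out 1 library, with an edgeR adjusted p up to 0.177. Those fits left out VTA library 3 or 4, or PFC library 1, 2, 3, 5 or 6. Ifit1 and Ifit3 passed in each of these fits. Summed endothelial markers at 28 days ran from 289 to 551 CPM in the VTA, 231 to 297 in the NAc and 214 to 293 in the PFC of saline libraries. Astrocyte markers summed to 1084 to 2698 CPM in the VTA, 814 to 1025 in the NAc and 872 to 1041 in the PFC of these libraries. For microglial markers the sums were 368 to 732, 423 to 501 and 378 to 434 CPM. The part of these cells in the region differences was not tested.

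**Figure D4:**
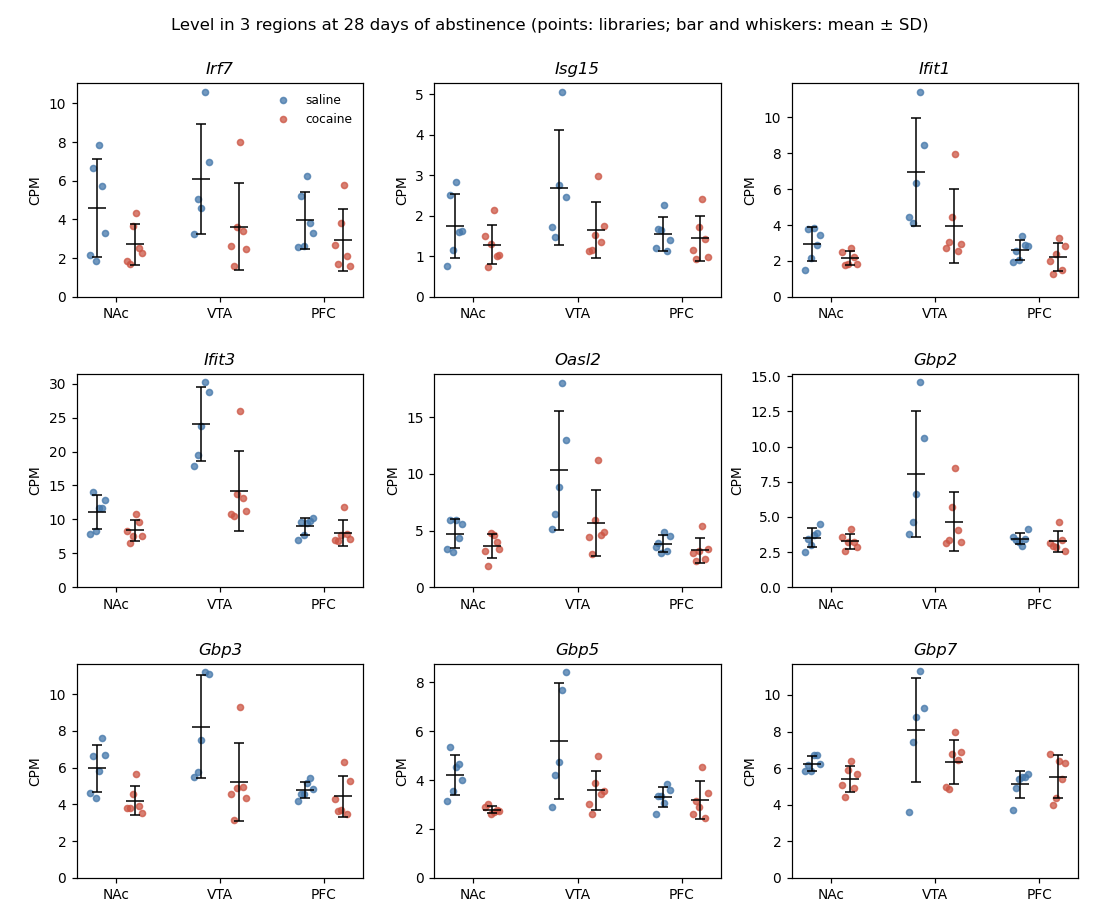
CPM of each of the 9 genes in the NAc, VTA and PFC at 28 days, for saline (blue) and cocaine (red) libraries, 1 point a library, with the mean and SD in black. VTA points lie highest for Ifit3, where saline values run from 17.9 to 30.3.

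The rest of the pathway was read from 93 other genes in 7 lists, ordered by role. The interferon genes themselves (9 listed) were near the floor: in the NAc at 28 days 8 of the 9 were at 0 in every library, and no interferon gene exceeded 2 reads in a counted library. Of the interferon receptors, 5 or 6 were tested in each table, and their median log2 fold change ran from -0.15 to 0.07. The kinases and transcription factors that relay the signal (Jak1, Jak2, Irf9 and 7 others) had medians from -0.08 to 0.16. In the VTA at 28 days 9 of 10 of these were lower, 2 of them at an unadjusted p under 0.05.

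The other antiviral effectors had a median of -0.61 in the VTA at 28 days (33 of 35 lower), -0.17 in the NAc at 28 days (27 of 31 lower) and 0.29 in the VTA at 1 day (24 of 26 higher). Their medians were -0.09 in the NAc at 1 day (23 of 27 lower), -0.12 in the PFC at 1 day (18 of 20 lower) and -0.04 in the PFC at 28 days (20 of 32 lower). Other interferon-inducible GTPases had a median of -0.31 in the NAc at 1 day (10 of 10 lower), -0.24 in the PFC at 1 day (6 of 6 lower) and -0.58 in the VTA at 28 days (12 of 12 lower). Their medians were -0.06 in the NAc at 28 days (7 of 10 lower), 0.11 in the VTA at 1 day (7 of 10 higher) and -0.05 in the PFC at 28 days (5 of 9 lower). Sensors of nucleic acid and their adaptors had a median of -0.38 in the VTA at 28 days (10 of 11 lower) and of 0.12 or nearer to 0 in the other tables. Negative regulators had medians of -0.39 in the VTA at 28 days (4 of 5 lower) and 0.22 in the VTA at 1 day (3 of 4 higher), and from -0.17 to 0.07 in the other 4 tables. In the PFC at 28 days 35 of the 71 genes tested were lower, with a median of 0.00. Among all genes tested, 50.5% were lower in the NAc, 41.1% in the VTA and 54.6% in the PFC at 1 day. At 28 days the shares were 48.0%, 56.9% and 49.9%. The same shares apply to the direction counts of the 9 genes. These lists were drawn up with the results of these libraries known, and share libraries with the 9 genes.

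Among the other 93 genes 0 passed an adjusted p of 0.05 in any table, by edgeR or limma, and 0 did by DESeq2 or by edgeR on recovered reads. At an unadjusted p under 0.05, 4 of 66 were lower (1.25% of all genes) and 1 higher (2.76%) in the NAc at 1 day. In the PFC at 1 day 10 of 53 were lower (2.11%), and in the VTA at 1 day 8 of 64 were higher (11.2%). At 28 days 8 of 71 were lower in the NAc (3.42%) and 18 of 79 in the VTA (6.39%). In the PFC at 28 days 0 of 71 were lower (2.97%) and 2 higher (2.69%).

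Ifitm3, a membrane protein that blocks viral entry, had the smallest p among lower genes in 3 tables. It was 5.77 ± 0.542 CPM after cocaine and 7.27 ± 1.75 CPM after saline (SD, n = 6) in the NAc at 1 day, a log2 fold change of -0.33 ± 0.14. In the NAc at 28 days it was 6.71 ± 0.974 and 9.04 ± 1.74 CPM (-0.43 ± 0.13), and in the PFC at 1 day 8.27 ± 2.33 and 11.6 ± 2.00 RPKM (-0.51 ± 0.16). None of the 3 passed, with adjusted p = 1.00, 0.592 and 0.913. In the VTA at 28 days Oas1b, of the oligoadenylate synthetase family, was 0.596 ± 0.116 CPM after cocaine and 1.15 ± 0.345 CPM after saline (-0.95 ± 0.23). Cxcl10, a chemokine that draws T cells, was 0.179 ± 0.117 and 0.784 ± 0.583 CPM there (-2.11 ± 0.53), and both had an edgeR adjusted p = 0.389. In the VTA at 1 day Ifitm2 was 25.7 ± 20.1 RPKM after cocaine and 9.96 ± 3.94 RPKM after saline (1.15 ± 0.40, limma adjusted p = 0.219).

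The remaining genes named by the same rule also missed the threshold. Tgtp1 in the NAc at 1 day (-0.78 ± 0.34), Gbp4 in the PFC at 1 day (-0.52 ± 0.18) and Iigp1 in the NAc at 28 days (-0.49 ± 0.15) are interferon-inducible GTPases. Jak2, a receptor-bound kinase, had a log2 fold change of 0.21 ± 0.07 in the NAc at 1 day. Samd9l, an antiviral effector, had 0.84 ± 0.30 in the VTA at 1 day. In the PFC at 28 days Ptpn2, a phosphatase that restrains cytokine signalling, had 0.14 ± 0.05, and Tlr7, a sensor of RNA, had 0.22 ± 0.09.

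**Figure D5:**
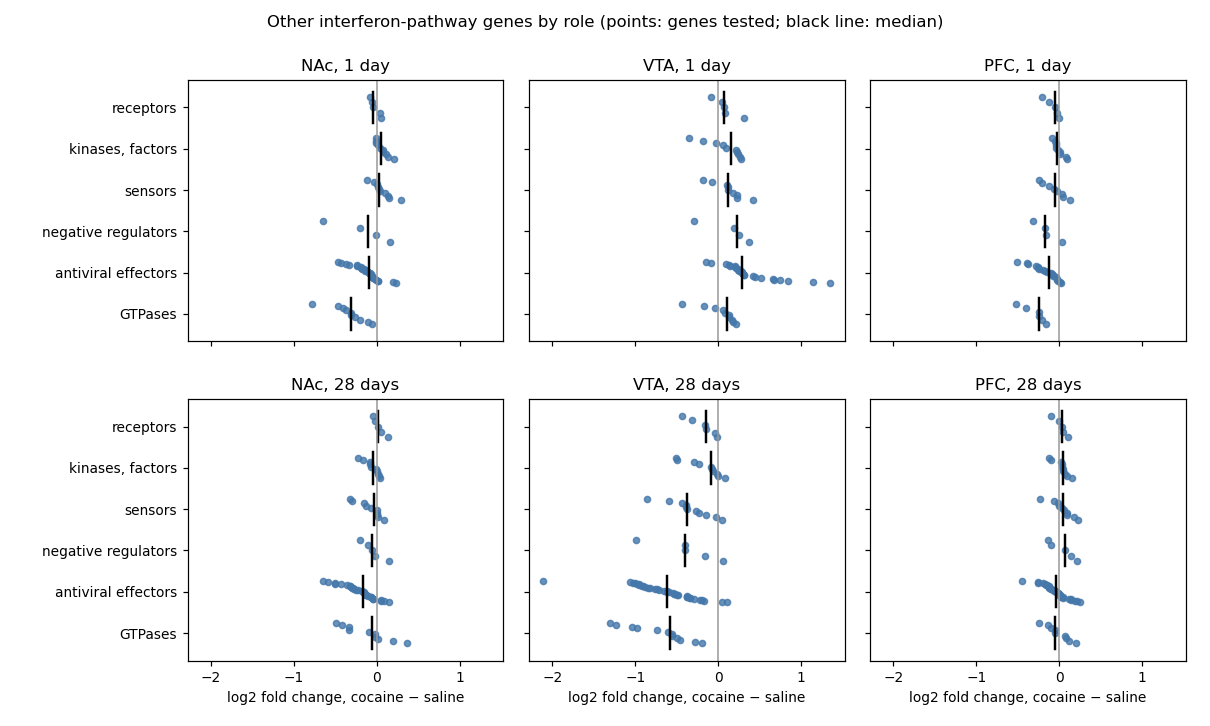
Log2 fold change (cocaine minus saline, horizontal axis) of the other interferon-pathway genes tested, by role (vertical axis), in the 6 tables; points are genes and the black line is the median. Antiviral effectors have a median of -0.61 in the VTA at 28 days and 0.29 in the VTA at 1 day.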

How the data were processed

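RNA-seq was measured in 71 libraries of tissue punches from 3 brain regions. The authors aligned reads to mm9 (STAR 2.4.1d, per the submitters' processing notes) and deposited 6 tables. Of these, 4 hold counts per gene (NAc at 1 day and all 28-day tables), deposited as raw counts, and 2 hold RPKM (VTA and PFC at 1 day), which the authors normalized for depth and gene length. The authors' own fold changes, p-values and percentages stand in further columns and were not used, nor were 30 columns of libraries outside these groups.

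Counts were tested with edgeR 4.0.16 (TMM scaling, quasi-likelihood, filterByExpr with a minimum count of 10 and total of 15). RPKM values were tested with limma 3.58.1 on log2(RPKM + 0.1), for genes averaging 0.5 RPKM or more. P-values were adjusted by Benjamini-Hochberg over all genes tested, and 0.05 was the threshold. The SE of an edgeR fold change was its size over the root of its F value. CPM levels use TMM library sizes. Whole reads were recovered from RPKM for 23803 of 23806 genes in the VTA and 23351 of 23353 in the PFC, within 0.01 of a whole read. Cocaine was compared with saline in each table, and regions were compared over the 28-day libraries in 1 fit for each treatment, with no term for mouse. The edgeR and limma fits of cocaine against saline were tested on simulated data. The fits between regions and the alternatives were not. Library depth is given in the report. P-values measure the spread between libraries, which may be technical. Alternatives were DESeq2 1.42.0, its size factors in edgeR, no low-value filter, 1 as pseudocount, a replicate block and leaving out each library. EdgeR on recovered reads and limma without a trend were added after seeing the data.

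The 9 genes and all gene lists were chosen with earlier results of these data known, and some listed genes are not reported here. Named among the other interferon genes were those called, or else the 2 of smallest unadjusted p under 0.05 in each direction and table; the 5 most alike genes were ranked by Pearson's r. Promoters came from RefSeq, GRCm38.p6, with R 4.3.3 and Python 3.11.15.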

Additional observations from a re-analysis of the deposited data

Results flagged for a closer look

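A library was set apart for a gene when its gap to the nearest library of its group exceeded Dixon's 95% critical value. Chance gives about 1 in 20 such groups where groups are independent and values follow a normal distribution. Levels were used here without a log scale. The 9 genes varied together between libraries, so their groups are not independent and the share below is no test. Of 108 groups of libraries (9 genes in 12 groups), 16 values were set apart (14.8%), and they fell in 5 libraries. No cause was tested.

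VTA cocaine library 4 at 28 days held 6 of them, all high. Ifit3 was 27.6 CPM there, against 11.1 to 14.6 in the other 5 cocaine libraries, and Irf7 was 8.48 CPM, against 1.70 to 3.82. Oasl2 was 11.9 CPM, Gbp3 9.89 CPM, Ifit1 8.43 CPM and Isg15 3.18 CPM. PFC cocaine library 4 at 28 days held 2, with Ifit3 at 11.2 CPM and Oasl2 at 5.13 CPM.

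VTA cocaine library 6 at 1 day held 4 high values. Isg15 was 9.30 RPKM, against 1.35 to 3.64 in the other 5, Gbp2 was 8.51 RPKM, Ifit1 8.27 RPKM and Gbp5 2.97 RPKM. PFC cocaine library 5 at 1 day held 3 high values, with Ifit3 at 7.64 RPKM, Ifit1 at 1.63 RPKM and Oasl2 at 1.53 RPKM. PFC saline library 1 at 28 days was low for Gbp7, at 3.55 CPM, against 4.73 to 5.41 in the other 5.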

How the results depend on the processing

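The median log2 fold change of the 9 genes kept its sign under every alternative run in all 6 tables. It ran from -0.37 to -0.18 in the NAc, 0.09 to 0.48 in the VTA and -0.52 to -0.25 in the PFC at 1 day, and from -0.55 to -0.31, -1.02 to -0.50 and -0.30 to -0.06 in the same regions at 28 days. DESeq2 called 1 of the 9 genes in the NAc at 28 days, where edgeR called 0; the cause was not tested. With 1 library left out, the count of genes that passed ran from 2 to 5 for VTA against NAc and from 2 to 4 for PFC against VTA in cocaine libraries, and from 4 to 7 and 7 to 8 in saline libraries. With edgeR on recovered reads the VTA median at 1 day was 0.43.

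With the replicate block at 1 day the medians were -0.27 in the NAc, 0.27 in the VTA and -0.46 in the PFC, and 0 of the 9 genes passed. The deviations of same-numbered cocaine and saline libraries correlated at -0.48 to 0.61 in the NAc, -0.27 to 0.45 in the VTA and -0.16 to 0.07 in the PFC. The correlation was above 0.1 in 3, 4 and 0 of 6 pairs, and 1, 2 and 0 pairs were each other's best match. At 28 days no block was fitted, since the columns carry a number of their own and not the labelled replicate number. The low read counts of these genes limit what could be told apart.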
